A study of Mus musculus with 4 samples.

Results

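The Fbxw genes of chromosome 9 form a family of neighbouring copies that encode F-box proteins with WD40 repeats. The 10 members described here are Fbxw13, Fbxw14, Fbxw15, Fbxw16, Fbxw18, Fbxw19, Fbxw21, Fbxw22, Fbxw24 and Fbxw28, chosen by symbol out of 17374 genes in the transcript table, and the estimated counts and TPM values of a gene's transcripts were summed in each library. TPM is a measure of transcript abundance that corrects for transcript length and has the same total in every library, so levels of different genes are compared on that scale only. RNA was sequenced from germinal vesicle stage mouse oocytes, the arrested stage before meiosis resumes. They were collected from non-primed postnatal day 16 females of a C57/Bl6 and DBA2J F1 hybrid and held in medium with milrinone, a phosphodiesterase inhibitor that prevents meiotic resumption. The 2 control libraries hold oocytes that received no irradiation (0 Gy), and the 2 irradiated libraries hold oocytes given 5 Gy from a cesium source in culture and collected after 24 h. Each library is a pool, with 59 oocytes per condition in the study's methods, and the zona pellucida was removed from all of them. The design text speaks of the control oocytes as sequenced directly, so a difference in culture time and the irradiation cannot be told apart if the controls were not held for the same time.

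F-box proteins are the exchangeable part of the SCF ubiquitin ligase. The F-box binds Skp1, which joins it to the scaffold Cul1 and the RING protein Rbx1, and the rest of the protein, here a WD40 domain, holds the substrate to be marked with ubiquitin. Oocytes rely on such ligases for meiotic arrest and progression and for the turnover of maternal proteins after fertilization. Of the members, Fbxw15 is known to direct the histone acetyltransferase HBO1 to degradation, and no role is given here for the others beyond that of the family.

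The members lie on chromosome 9 of GRCm38.p6 between bases 109139454 and 109702700, a stretch of 563.2 kb, all on the minus strand. RefSeq places 5 further Fbxw genes beside or among them (Fbxw20, Fbxw23, Fbxw25, Fbxw26 and Fbxw27), so that 15 Fbxw genes fill 651.2 kb, up to base 109790660. Between the first and the last member the annotation holds no other protein-coding gene and 3 snRNA genes, of which 0 are listed in the table. Each member has 10 exons in the GENCODE transcript used here and encodes 464 to 469 codons.

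The members resemble each other in front of their transcription starts. The RefSeq promoter table (GRCm38.p6) covers 250 bases before to 50 after the start, and the first promoter listed for a gene was used. It holds 8 of the 10 members, without Fbxw13 and Fbxw22. Over these 28 pairs the identity ran from 68.2% to 97.0%, with a median of 85.7%, and a shifted start counts as a difference. A stretch of up to 100 bases upstream of the start, set to begin 3 bases before the shared word CAGCTG, had identities from 88.1% to 100% with a median of 91.0%. Because it is aligned on that word and not on the annotated start, these values cannot be set against those of the whole promoters. It ends 1 to 5 bases before the start in the members except Fbxw19, where it ends 29 bases before. The start is that of the promoter used. RefSeq's Fbxw14 gene reaches base 109287729, so part of its stretch, TTTAAA included, lies inside the annotated gene. The stretches shown are those of Fbxw24, the member with the highest level, of Fbxw14 and Fbxw28, which are the same letter for letter, of Fbxw19, their nearest match at 98.0%, of Fbxw16, at 88.1% to Fbxw24, and of Fbxw20 and Fbxw26, neighbours that are no members. The capitals mark the words CAGCTG and TTTAAA, and each stretch reads 5′ to 3′ on the minus strand.
Fbxw24, chr9:109626064-109626163: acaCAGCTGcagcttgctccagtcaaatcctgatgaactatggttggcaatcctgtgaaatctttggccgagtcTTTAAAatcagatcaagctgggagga
Fbxw14, chr9:109287677-109287775: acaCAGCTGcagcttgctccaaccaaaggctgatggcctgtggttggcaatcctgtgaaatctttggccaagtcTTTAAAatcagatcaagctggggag
Fbxw28, chr9:109339660-109339758: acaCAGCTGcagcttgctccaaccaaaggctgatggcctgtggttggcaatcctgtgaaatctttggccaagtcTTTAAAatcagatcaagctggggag
Fbxw19, chr9:109495883-109495982: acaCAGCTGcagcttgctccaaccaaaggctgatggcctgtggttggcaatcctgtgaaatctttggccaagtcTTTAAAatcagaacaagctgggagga
Fbxw16, chr9:109449144-109449243: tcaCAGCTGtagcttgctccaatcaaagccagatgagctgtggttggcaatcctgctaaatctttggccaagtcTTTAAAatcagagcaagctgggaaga
Fbxw20, chr9:109234755-109234837: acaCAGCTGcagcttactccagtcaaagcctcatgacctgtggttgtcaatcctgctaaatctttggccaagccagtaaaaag
Fbxw26, chr9:109746092-109746191: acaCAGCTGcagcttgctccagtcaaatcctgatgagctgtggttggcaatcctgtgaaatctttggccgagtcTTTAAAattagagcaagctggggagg

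The word CAGCTG stood at least once in 8 of 8 member promoters, against 16.3% of all 32851 promoters of the same length, and TTTAAA stood in 8 of 8 against 13.2%. Both words read the same on either strand, and CAGCTG is one form of the E-box CANNTG, which was present in 8 of 8 members and in 72.3% of all promoters. The TATA word TATAAA was in 0 of 8 (13.6% of all), TAATTG in 0 of 8 (8%), TAATTA in 0 of 8 (5.29%), and GGGCGG in 1 of 8, Fbxw18 (35.7%), each searched on both strands. The shared letters were not limited to the members. Of the 4 further cluster genes in the table, Fbxw25 and Fbxw26 carry both words and were 91.4% and 93.1% identical to Fbxw24 over the whole promoter, above every other member (at most 90.9%). The promoter used for Fbxw25 lies inside its annotated gene, which reaches base 109665347. Fbxw20 carries CAGCTG but not TTTAAA, at 76.6%, and Fbxw23 carries neither, at 49.2%. The members are copies of one another, so 8 of 8 is a description of a shared sequence and not 8 independent matches, and the words were chosen after the promoters had been read.

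The coding sequences were 80.2% to 99.1% identical over 45 pairs, with a median of 83.4%. The closest pair was Fbxw14 and Fbxw28, direct neighbours on the chromosome, at 99.1%, followed by Fbxw14 and Fbxw22 at 92.3% and Fbxw28 and Fbxw22 at 91.9%. The pair furthest apart was Fbxw28 and Fbxw24, the 2 members with the highest levels. This bears on the counting. Reads were 100 bases long, and the share of a gene's 100-base windows that occur in no other gene's transcripts was 53.8% for Fbxw28 and 55.2% for Fbxw14, against 96.7% to 100% for the other 8 members. At 50 bases the shares were 32.9% and 32.4% for this pair. The division of reads between Fbxw14 and Fbxw28 is therefore uncertain, and their sum is given beside the single values. None of the windows of any member occurred in a gene outside the cluster.

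**Figure D1:**
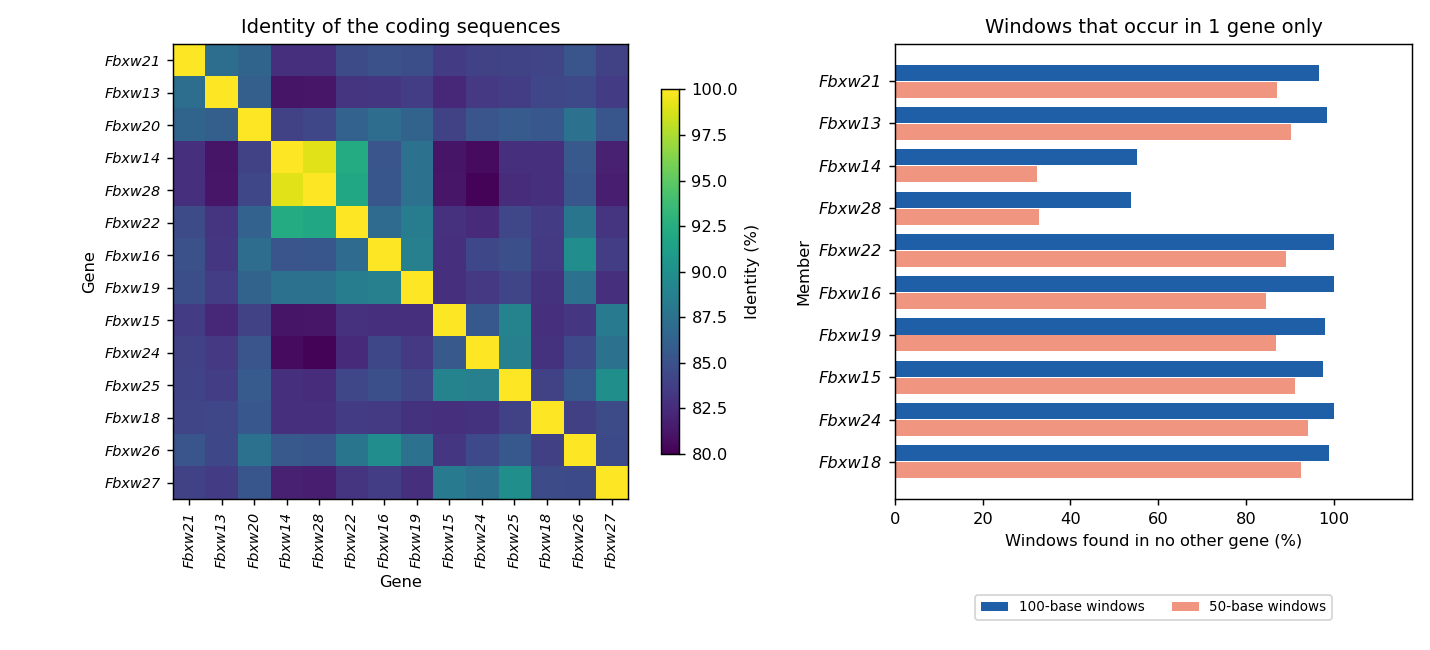
Identity in percent between the coding sequences of 14 Fbxw genes in chromosomal order (left) and, for each of the 10 members, the percentage of 100-base and 50-base windows of the transcript found in no other gene (right). Fbxw14 and Fbxw28 share 99.1% of their coding sequence and have the lowest percentages of windows of their own, 55.2% and 53.8% at 100 bases.

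The 4 libraries held 33349466 to 37232818 estimated counts, and the lowest count of any member in any library was 20910, for Fbxw13. The oocyte label held: 12 of 12 oocyte markers were listed and made up 4.77% to 5.54% of TPM. Of 12 granulosa and cumulus cell markers 8 were listed, with a summed TPM of 16.8 to 19.1 in the controls and 16.7 to 22.3 in the irradiated libraries, while Amh, Amhr2, Fst and Foxl2 were not listed. Of 6 theca and stroma markers 4 were listed, at a sum of 1.25 to 1.35 and 1.12 to 2.48 TPM, without Col1a1 and Col1a2, and 0 of 4 blood markers were listed. Irradiated library 2 stood apart: its TMM factor, edgeR's correction of the library size, was 1.19, against 0.923, 0.975 and 0.937 in control libraries 1 and 2 and irradiated library 1, and its median TPM over listed genes was 1.82 against 1.20 to 1.29.

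The members were among the most abundant transcripts of the oocyte. Together they held 5.27% and 4.89% of all TPM in control libraries 1 and 2 and 4.94% and 4.53% in irradiated libraries 1 and 2, while they are 0.0576% of the listed genes. The mean was 5.08% ± 0.270 (SD, n = 2) in the controls and 4.73% ± 0.295 (SD, n = 2) after irradiation. Irradiated library 1 lay above control library 2, so the conditions overlapped in TPM. Between libraries of the same number the share was lower after irradiation in both, 4.94% against 5.27% and 4.53% against 4.89%. The study calls the replicates independent experiments, but whether libraries of one number share an experiment is not stated. With 2 libraries per condition a two-sided exact permutation test cannot go below p = 0.333, and no test was run on this share. All 15 Fbxw genes of the cluster together held 5.73%, 5.30%, 5.38% and 4.98% of TPM in the same order of libraries. In every library 3 members were among the 20 highest genes, 7 among the 50 highest and 8 among the 100 highest.

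Fbxw24 had the highest level of the members, 12485 and 11421 TPM in control libraries 1 and 2 and 11440 and 10235 TPM in irradiated libraries 1 and 2. It ranked 9th, 12th, 10th and 13th among all genes. Fbxw28 followed with 10471 and 9957 TPM in the controls and 9819 and 8791 TPM in the irradiated libraries. Fbxw14 had 9589 and 8819 TPM in the controls and 9055 and 7978 TPM after irradiation. These 3 genes held 59.7% to 61.8% of the members' TPM in each library. Taken as a sum, the near-identical Fbxw14 and Fbxw28 had 20059, 18776, 18874 and 16769 TPM. Reads moved between these genes stay in the sum, although TPM weighs each by the length of the transcript it is given to.

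The next 4 members lay close together. Fbxw16 had 4286 and 3863 TPM in the controls and 4211 and 4203 TPM in the irradiated libraries, and Fbxw15 had 4319 and 4042 TPM against 3968 and 3625 TPM. Fbxw19 had 3741 and 3433 TPM in the controls and 3672 and 3508 TPM in the irradiated libraries. Fbxw18 had 3432 and 3389 TPM in the controls and 3148 and 3156 TPM after irradiation. In the single libraries Fbxw16 was above Fbxw15 in 2 of 4, whereas every other step of the order held in 4 of 4.

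The lowest members were still well above most genes. Fbxw21 had 2410 and 2177 TPM in the controls and 2242 and 1816 TPM in the irradiated libraries. Fbxw22 had 1280 and 1121 TPM against 1190 and 1101 TPM. Fbxw13 had 690 and 659 TPM in the controls and 688 and 848 TPM after irradiation, and ranked between 173 and 233 among all genes.

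The order by mean TPM was thus Fbxw24, Fbxw28, Fbxw14, Fbxw16, Fbxw15, Fbxw19, Fbxw18, Fbxw21, Fbxw22 and Fbxw13, from 11395 down to 721 TPM, a 15.8-fold range, and by mean estimated count the order was the same for 10 of 10. The ranges over the 4 libraries overlapped between Fbxw24 and Fbxw28, Fbxw28 and Fbxw14, Fbxw16 and Fbxw15, and Fbxw15 and Fbxw19, although within single libraries all of these but Fbxw16 and Fbxw15 kept their order in 4 of 4. They did not overlap at the other 5 steps, and the widest step was from Fbxw14 to Fbxw16. Within a gene the highest library was 1.09 times the lowest for Fbxw19 and Fbxw18 and 1.33 times for Fbxw21, the widest of the 10. Control library 1 was the highest library for 9 members, and irradiated library 2 was the lowest for 6 members and the highest for Fbxw13. The ratio of Fbxw24 to Fbxw13 was 18.1 and 17.3 in the controls and 16.6 and 12.1 in the irradiated libraries.

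**Figure D2:**
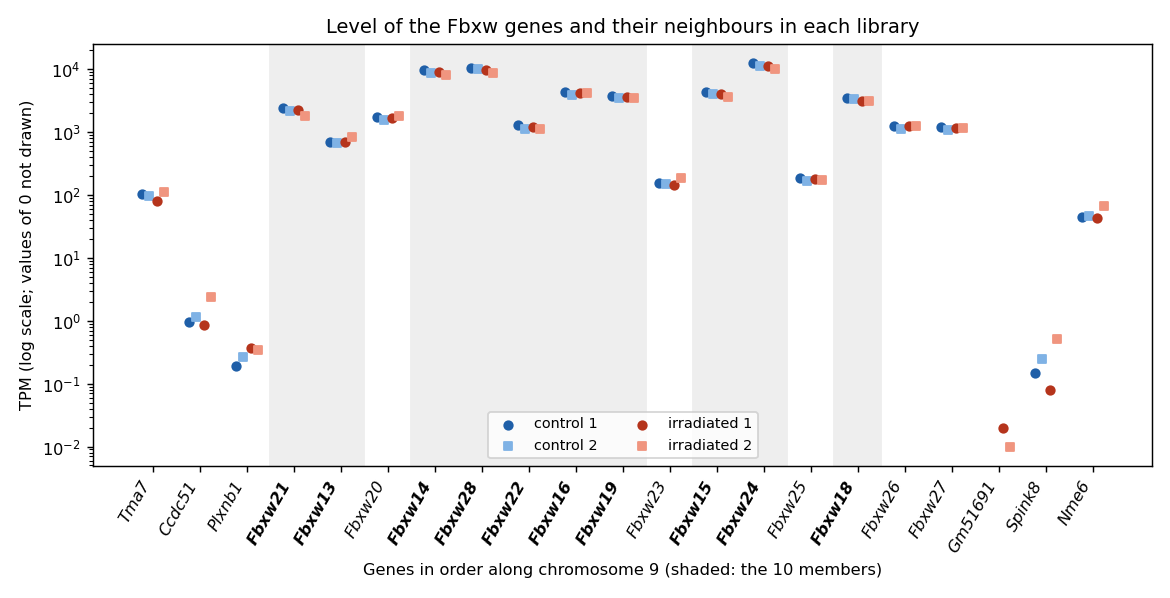
TPM on a log axis of the 15 Fbxw genes and of the 3 nearest protein-coding genes on each side, in order along chromosome 9, with 1 point for each of the 4 libraries and the 10 members shaded. All members lie between 659 and 12485 TPM, above every flanking gene. Within a member the highest point is 1.09 to 1.33 times the lowest, while the members' means span a 15.8-fold range. The ranges of some genes overlap, and low flanking genes such as Spink8 are more widely spread.

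The levels varied along the row. Fbxw24, the highest, stands between Fbxw15 and Fbxw25, and Fbxw25 had 170 to 189 TPM. Fbxw23, which GENCODE annotates as a transcribed unprocessed pseudogene, had 143 to 183 TPM. The other neighbours were at the level of the lower members, with 1564 to 1789 TPM for Fbxw20, 1125 to 1265 TPM for Fbxw26 and 1086 to 1215 TPM for Fbxw27. Outside the row the level dropped. Tma7, Ccdc51 and Plxnb1 on one side had at most 110.4, 2.36 and 0.37 TPM, and Gm51691, Spink8 and Nme6 on the other had at most 0.02, 0.52 and 67.4 TPM. The lowest member was 6.73 to 8.70 times the highest of these 6 genes in each library.

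The 10 WD40 F-box genes outside the cluster gave a different picture of level. Their TPM summed to 132 and 141 in the controls and 156 and 241 in the irradiated libraries, so that the members' sum was 401, 346, 318 and 188 times as high. The highest of them were Fbxw4 with 60.8, 71.0, 76.4 and 136 TPM, Btrc, which targets beta-catenin, with 48.8, 47.2, 53.9 and 67.3 TPM, and Fbxw17 with 9.16, 9.12, 10.6 and 14.8 TPM. The lowest member was 6.23 to 11.3 times as high as the highest of these 10 genes in each library.

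Of the SCF machinery, Skp1, the partner that every F-box protein binds, was as abundant as the highest member, with 10927 and 11488 TPM in the controls and 10883 and 12598 TPM in the irradiated libraries. The summed TPM of the members was 4.82, 4.26, 4.54 and 3.59 times that of Skp1. The ubiquitin-conjugating enzyme Ube2d3 had 1319 to 1825 TPM and Nedd8, the modifier that activates cullins, 650 to 677 TPM. The scaffold Cul1 had 310 to 370 TPM and Rbx1 376 to 404 TPM, each below the level of the lowest member.

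The comparison of irradiated with control oocytes asks whether the genotoxic treatment changed these transcripts. It gave no call for any member. Of 12569 genes tested with edgeR's quasi-likelihood test, 1 (0.00796%) was called, that is, it moved by more than 2 log2 units at an adjusted p under 0.05, and 0 of 10 members were. At an unadjusted p under 0.05 with a lower level after irradiation, 1.29% of genes and 0 of 10 members passed. DESeq2 and limma-voom also gave 0 members at either limit. They called 4 and 0 genes in all, and their shares of all genes at the unadjusted limit were not taken. The log2 fold changes of the members, irradiated over control, lay between -0.36 for Fbxw21 and -0.042 for Fbxw13, with adjusted p-values from 0.741 to 0.949.

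For Fbxw24 the log2 fold change was -0.34 ± 0.39 (SE), with a 95% interval from -1.27 to 0.59. For Fbxw28 it was -0.33 ± 0.38 and for Fbxw14 -0.31 ± 0.38. Fbxw21 had -0.36 ± 0.32, Fbxw15 -0.34 ± 0.32, Fbxw18 -0.32 ± 0.30 and Fbxw22 -0.25 ± 0.27. Fbxw19 had -0.20 ± 0.31, Fbxw16 -0.16 ± 0.31 and Fbxw13 -0.042 ± 0.20. The intervals of all 10 held 0, and their lower ends, the lowest of them -1.27, stayed short of the log2 limit of -2.

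All 10 point estimates were below 0, with a median of -0.32 against 0.01 over all genes tested, but the distance from the other genes rested largely on 1 library. Without irradiated library 2 the median was -0.049 against 0.0026 over all genes, with 7 members below 0 and 3 above (Fbxw13, Fbxw16 and Fbxw19). Without irradiated library 1 the median was -0.59 against 0.013 over all genes, and 9 of 10 members, all but Fbxw13, had an adjusted p under 0.05 in edgeR's test, down to 1.33e-08 for Fbxw21, as did 18.2% of the 13011 genes tested in the same direction. None of these passed the log2 limit, and the spread in that fit came from the 2 control libraries and was assumed for the lone irradiated one. The scaling moved all genes together. Scaled by library size alone, the members' median was -0.18 with 9 below 0 and that of all genes 0.17, and on log2(TPM + 1) they were -0.11 with 7 below 0 and 0.18. The difference of the members' median from that of all genes thus lay between -0.35 and -0.29 under each scaling and tool with all 4 libraries. In those fits 10 of 10 members were below the median of all genes, Fbxw13 on log2(TPM + 1) with a difference of only -0.00062. The 12 oocyte markers had a median of -0.32 with 9 below 0, and -0.029 without irradiated library 2. The part of that library in the members' values is given by these fits, and its source was not tested. In pooled oocytes, fewer cells of a kind and less RNA per cell cannot be told apart.

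**Figure D3:**
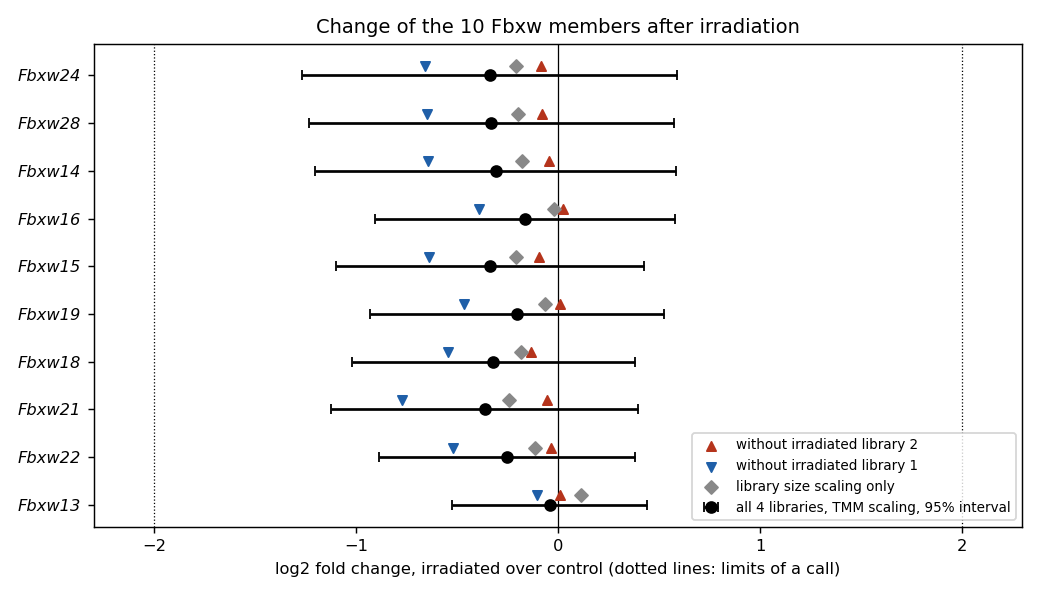
Log2 fold change of each member, irradiated over control, with its 95% interval from edgeR (black), and the values without irradiated library 2, without irradiated library 1 and with scaling by library size only. Every interval holds 0 and lies inside the dotted limits of 2, and 3 members are above 0 without irradiated library 2.

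In TMM-scaled CPM both irradiated libraries lay below both controls for 2 of 10 members, Fbxw15 and Fbxw18, as they did for 19.9% of all genes tested. In TPM this held for 3 of 10 members, Fbxw15, Fbxw18 and Fbxw28, and for 6.23% of the 9438 genes with a mean of at least 1 TPM. Set against the control of the same number, the irradiated library was lower in both pairs for 10 of 10 members in TMM-scaled CPM, as for 29.9% of all genes tested, and for 7 of 10 in TPM, without Fbxw13, Fbxw16 and Fbxw19, as for 9.4% of genes. Fbxw18 had 3411 ± 30.4 TPM (SD, n = 2) in the controls and 3152 ± 5.90 TPM (SD, n = 2) after irradiation. The narrow spread held in TPM only. In TMM-scaled CPM Fbxw18 had 3517 ± 174 (SD, n = 2) in the controls and 2816 ± 546 (SD, n = 2) after irradiation. It was not called (adjusted p = 0.748, edgeR). The 5 further Fbxw genes were tested as well, with 0 calls, log2 fold changes from -0.24 (Fbxw25) to -0.12 (Fbxw23) and a median of -0.16.

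The 10 members were listed with 24 transcripts, 12 with a curated RefSeq name and 12 with a predicted one. Fbxw13, Fbxw16 and Fbxw24 had 1 each. In Fbxw15, Fbxw18 and Fbxw21 a single transcript held over 99% of the gene's TPM in each library. Fbxw14 was divided among 4 transcripts, the highest at 45.7% to 47.8%, and Fbxw28 among 3, the highest at 76.5% to 79.1%. In Fbxw19 the curated transcript held 74.2% to 78.9%. These shares differed little between libraries.

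Fbxw22 was the exception. Its curated transcript held 44.4% and 49.7% of the gene's TPM in the controls and 46.7% and 58.5% in the irradiated libraries, while its main predicted transcript held 49.9%, 43.0%, 47.5% and 33.4%. The curated one was the higher in control library 2 and irradiated library 2 and the lower in the other two, so which was the higher went with the replicate number and not with the condition. Reads are shared out among transcripts by an estimate, and the counts of single transcripts carry the error of that step.

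**Figure D4:**
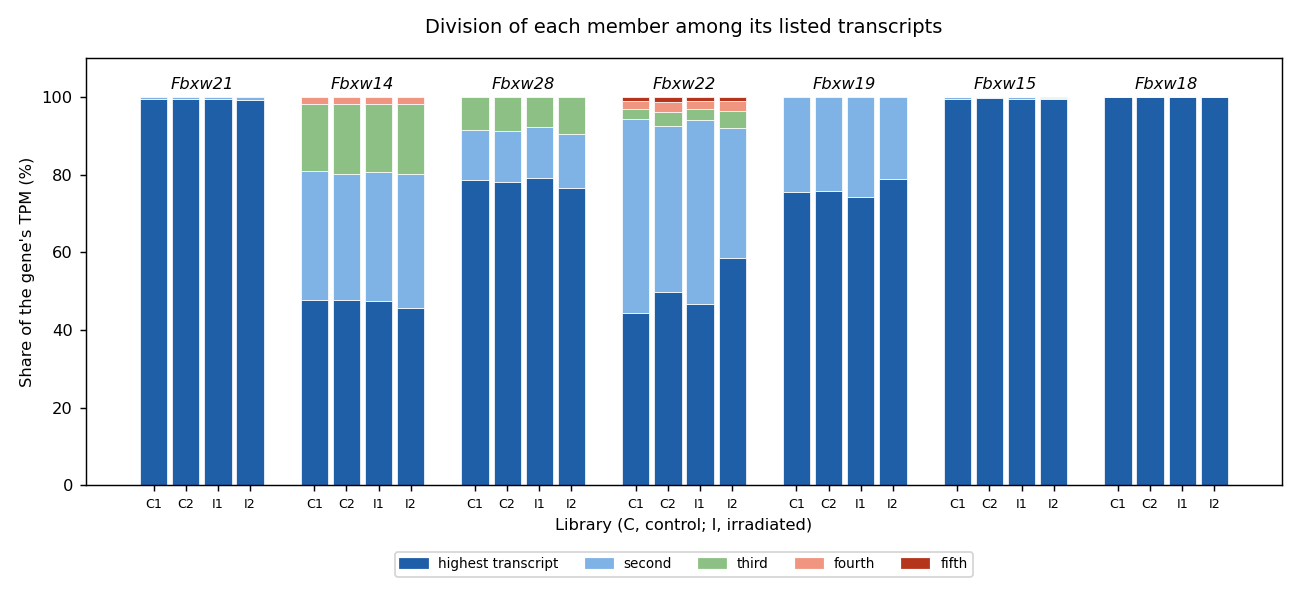
Share of each gene's TPM held by its listed transcripts, for the 7 members with more than 1, in control (C1, C2) and irradiated (I1, I2) libraries, with transcripts ordered by mean share. The shares are alike in the 4 libraries except in Fbxw22, where the highest transcript runs from 44.4% to 58.5%.

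All 24 member transcripts passed edgeR's filter and 0 were called, against 0 of 26645 transcripts (0%). At an unadjusted p under 0.05 there were 0 of 24, against 1306 transcripts or 4.9% in all. DESeq2 gave 1 of 24 at that limit, where its share over all transcripts was not taken, and 0 calls. Leaving out irradiated library 1 moved the median log2 fold change of the member transcripts from -0.295 to -0.556. Without irradiated library 2 it was -0.049, and without control libraries 1 and 2 in turn it was -0.210 and -0.355.

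The genes that act with F-box proteins were tested as lists. Of 35 SCF genes 33 were tested and 0 passed both limits. At an unadjusted p under 0.05 there was 1 of 33, higher after irradiation. Over all 12569 genes tested, 582 were higher and 162 lower at that limit. The 1 was Cops7b, a subunit of the signalosome that removes Nedd8 from cullins, at 0.73 ± 0.23 (SE; adjusted p = 0.708, edgeR). It also had the greatest change in size on the list. Of the 33 genes, 12 were above and 21 below 0 with a median of -0.048. With library size scaling these were 22 and 11 with a median of 0.12, a move shared by all genes, and the list's difference from the median of all genes was -0.058 and -0.052 in these fits. Skp1 stood at -0.15 ± 0.36, Ube2d3 at -0.11 ± 0.28 and Nedd8 at -0.17 ± 0.19.

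All 10 other WD40 F-box genes were tested with 0 calls, 9 above and 1 below 0, and a median log2 fold change of 0.18. Fbxw4 had 0.43 ± 0.18, Btrc 0.10 ± 0.16, Fbxw17 0.23 ± 0.14 and Fbxw5, with the greatest change of the list, 0.52 ± 0.25. The difference between these genes and the members was not tested. Of 12 other F-box genes with roles in oocytes or embryos 10 were tested with 0 calls, 5 above and 5 below 0. Fbxo5, the Emi1 inhibitor of the anaphase-promoting complex, had 157, 168, 162 and 138 TPM and -0.30 ± 0.23, Fbxo34 -0.19 ± 0.20 and Fbxo30 -0.022 ± 0.14, and Skp2 had the greatest change, 0.32 ± 0.29.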

How the data were processed

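RNA-seq of 2 control and 2 irradiated libraries was used, grouped by the sample titles. The authors isolated mRNA with oligo(dT), mapped paired reads of 100 bases with Bowtie2 against GRCm38, and deposited for each RefSeq transcript an estimated count and a TPM value. The labels also name HISAT2 and RSEM, and their versions and the annotation release are not given in the sources used here. The deposited estimated counts are not scaled for depth, and the deposited TPM values are scaled by transcript length and to 1 fixed total per library. A further 10 columns (FPKM and averages) were not used.

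Symbols came from RefSeq GRCm38.p6 by gene ID (17323 of 17374 matched). Counts were summed per gene, rounded and analysed by the quasi-likelihood test of edgeR (version 4.0.16, R 4.3.3) after filterByExpr (min.count = 10) and TMM scaling, without a block, and p-values were adjusted after Benjamini-Hochberg over all genes or transcripts tested. Calls used the study's limits, more than 2 log2 units in either direction at an adjusted p under 0.05. DESeq2 1.42.0 and limma 3.58.1 served as alternatives, with other scalings, log2(TPM + 1) and log2(TPM + 0.1) at a mean of at least 1 TPM, each library left out, and a replicate block. The replicate numbers were not treated as pairs, since only 2 exist and neither the labels nor the methods say what libraries of one number share. The tests were checked on simulated data. Identities were computed with edlib 1.3.9.post1 on GENCODE coding sequences, and figures were drawn with matplotlib 3.10.9.

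The named genes are all members, the other chromosome 9 Fbxw genes, 3 flanking genes on each side and, per list, those past both limits or else the 3 highest by mean TPM and the 1 with the greatest change; Cul1 and Rbx1 were added after their values were seen. The members and lists were chosen with earlier results of these data known. Intervals cover the spread between libraries only, with n = 2, and edgeR estimates that spread in part from the other genes.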

Additional observations from a re-analysis of the deposited data

How the results depend on the processing

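The count of called members was 0 under every alternative run for gene totals and for transcripts, each library left out included, and so was that of the SCF and other F-box lists. The order of levels was the same for 10 of 10 members by mean count. The median log2 fold change of the members, -0.32, kept its sign throughout. It lay between -0.33 (with the replicate block, and with DESeq2 at -0.33) and -0.11 (log2(TPM + 1)), and ran from -0.59 to -0.049 with 1 library left out. In each fit of all 4 libraries 0 members had an unadjusted p under 0.05.

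The sign of single members changed for 3, in part because library size scaling, the TPM scales and TMM over genes of at least 100 CPM moved the median of all genes to between 0.17 and 0.21. Against that median all 3 stayed lower under each of these. Scaled on the genes of at least 100 CPM, the members' median was -0.15, with 8 below 0 and 2 above. Fbxw13 turned to 0.12 with library size scaling, 0.18 on log2(TPM + 1), 0.18 on log2(TPM + 0.1), 0.14 with TMM over genes of at least 100 CPM, and ran from -0.12 to 0.029 over the 4 libraries left out in turn (0.0081 without irradiated library 2). Fbxw16 turned to 0.048 on either TPM scale and 0.0066 with TMM over those genes, and ran from -0.39 to 0.027 with 1 library left out. Fbxw19 turned to 0.0022 on either TPM scale and ran from -0.46 to 0.012 with 1 library left out. The highest of these values for Fbxw16 and Fbxw19 came without irradiated library 2. The median of the SCF and other F-box lists together ran from -0.024 (without irradiated library 2) to 0.0055 (without control library 1), with 0.0028 without irradiated library 1. As a share of estimated counts, which are not divided by length, the members held 5.10% and 4.72% in control libraries 1 and 2. After irradiation they held 4.66% and 4.09% in libraries 1 and 2, with means of 4.91% and 4.37% for the conditions. On this scale both irradiated libraries lay below both controls, whereas the conditions overlapped in TPM, and neither share was tested. The share of TPM ran from 4.53% to 4.94% over single irradiated libraries. Causes were not tested. Scaling without the cluster and over genes of at least 100 CPM was chosen after seeing the data.

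With the replicate block the members' adjusted p-values ran from 0.687 to 0.961 in edgeR's test, the calls over all genes rose from 1 to 7, and the deviations of libraries with the same number correlated at 0.177 over 12569 genes. Calls over all genes were 4 with DESeq2, 3 with no filter and 0 with limma-voom, library size scaling, either TPM scale and TMM over genes of at least 100 CPM, and ran from 16 to 84 with 1 library left out. For transcripts DESeq2 called 246 in all, 0 of them of a member. With 2 libraries per condition, changes of up to -1.27 in Fbxw24 stayed inside the interval.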
